A study of Bos taurus with 9 samples.

Results

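The 105 genes described here encode the machinery of oxidative phosphorylation (OXPHOS) in cultured bovine uterine glands. They were taken from the 20679 genes of the deposited data by a rule on name and position. That rule was set with earlier results of these data known. All 13 genes on the mitochondrial chromosome (MT) were taken, each of them an mRNA, together with 92 nuclear genes whose symbols mark subunits of the 5 respiratory complexes or the NDUFAF assembly factors of complex I. By complex, the nuclear genes comprised 35 subunits and 8 assembly factors of complex I, 4 of complex II, 8 of complex III, 19 of complex IV and 18 of complex V. RNA-seq was performed on day 5 of 3D culture of gland fragments picked from the endometrium of abattoir uteri in the mid-luteal stage, 50 fragments to a tube. Fragments were grown in Matrigel without EGF (CYST, in which they formed cysts), in Matrigel with 5 ng/ml EGF (MAT, in which they formed UG-LIKE structures), or with the same EGF dose and collagen I added to the Matrigel at 0.5 mg/ml (MAT + COL), with 3 libraries per group. Matrigel and a medium with insulin, transferrin, selenite, ascorbic acid and albumin were common to all 3 groups. The labels do not give the EGF dose, which was taken from the methods of the study.

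The respiratory chain of the inner mitochondrial membrane passes electrons from NADH (complex I) and succinate (complex II) through complexes III and IV to oxygen, and complex V, the ATP synthase, uses the proton gradient built up on the way to make ATP. Complex II is encoded wholly in the nucleus, whereas complexes I, III, IV and V are assembled from nuclear subunits made in the cytosol and from a few subunits that are encoded by mitochondrial DNA and translated inside the organelle. The 2 sets of genes are transcribed by different polymerases, so their mRNAs were described apart. In the uterine glands, the epithelium secretes proteins and nutrients for the early embryo.

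Total counts per library ranged from 6568968 to 17948600, and every one of the 13 mitochondrial mRNAs had at least 60 counts in each library. The epithelial markers EPCAM, CDH1, KRT8, KRT18, KRT19 and FOXA2 were all detected, with a summed TPM (a level per transcript length, scaled to the same total in each library) of 16649 to 18423 in CYST, 27613 to 43306 in MAT and 28181 to 38520 in MAT + COL. The 7 stromal markers, led by DCN, summed to 1986 to 4486 TPM in CYST, 738 to 2946 in MAT and 1870 to 3439 in MAT + COL. Markers of immune cells, endothelium and smooth muscle each summed to between 8.26 and 75.3 TPM in every library. The red blood cell gene HBB had no counts. ALAS2, the other red blood cell gene found, stood at 3.0046, 3.6963 and 0 TPM in CYST and at 0 TPM in every MAT library. In MAT + COL it stood at 0.45718, 0.2822 and 0 TPM. The epithelial sum, carried by KRT8 and KRT19, was therefore higher in both EGF groups, and its part in the results below was not tested. In bulk libraries, fewer cells of a type and less RNA per cell cannot be told apart.

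The nuclear OXPHOS genes took a smaller share of the reads in both EGF groups than in cysts, whereas the mitochondrial mRNAs did not. Counts on the 92 nuclear genes made up 1.35%, 1.31% and 1.20% of the CYST libraries (replicates 1, 2 and 3), 1.09%, 1.03% and 0.992% of the MAT libraries, and 1.06%, 1.02% and 0.997% of the MAT + COL libraries. Every CYST library was above every library of the EGF groups, and the MAT and MAT + COL values overlapped. The group means were 1.28% ± 0.0756 (SD, n = 3) in CYST, 1.04% ± 0.0469 in MAT and 1.03% ± 0.0339 in MAT + COL. The 13 mitochondrial mRNAs made up 1.22%, 0.930% and 0.657% of the CYST libraries, 0.957%, 1.09% and 1.07% of the MAT libraries, and 0.957%, 1.06% and 1.02% of the MAT + COL libraries. The CYST values spanned those of both other groups, with the highest share in replicate 1 and the lowest in replicate 3. In TPM, mitochondrial mRNAs stood at 0.729 to 1.32 times the nuclear genes in CYST, at 1.26 to 1.44 times in MAT and at 1.31 to 1.44 times in MAT + COL. These shares are sums over genes and are given as a description, without a test.

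**Figure D1:**
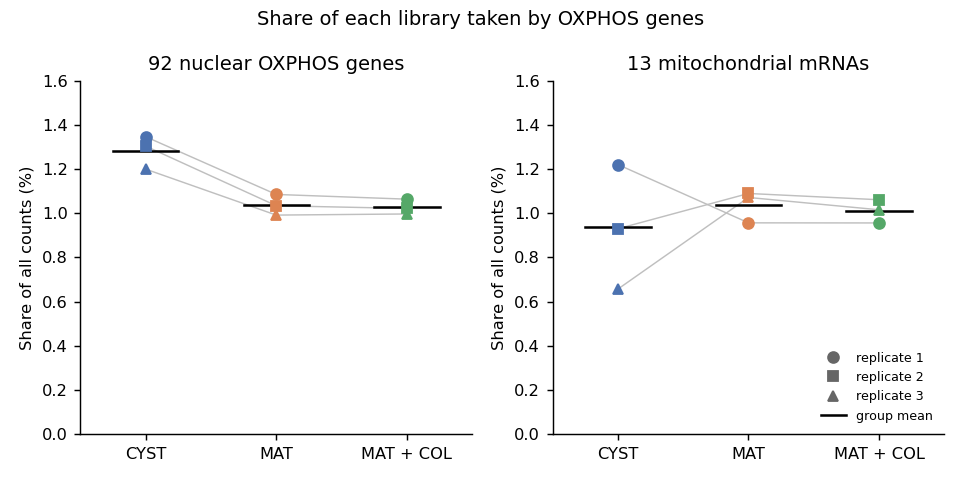
Share of all counts (%) on the 92 nuclear OXPHOS genes and the 13 mitochondrial mRNAs in each library, with 1 marker shape per replicate number, grey lines joining equal numbers and a black bar at the group mean. The nuclear share lay between 1.20% and 1.35% in CYST and at or below 1.09% in both EGF groups, while the mitochondrial share overlapped between all 3 groups.

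Levels differed widely among the genes. On the TPM scale, the highest mean over the 9 libraries was that of COX3 (7605), a core subunit of complex IV encoded by mitochondrial DNA, which ranked 9 of all genes, followed by MT-CO2 (3769), MT-ATP6 (3607) and COX1 (3576). The highest nuclear genes were ATP5F1B (1569 TPM) and ATP5F1A (1448 TPM), the beta and alpha subunits of the catalytic head of ATP synthase, and then NDUFA4 (675 TPM), a subunit of complex IV. Of the nuclear genes, 6 had too few reads to be tested, namely COX4I2, COX6A2, COX6B2, COX7B2, COX7B_1 and ATP5F1E_2. COX6A2, the heart and muscle isoform of its subunit, had 0 counts in all 9 libraries, which allows up to 3 counts in a library. COX4I2, an isoform known from lung and hypoxic cells, had between 0 and 5 counts, and its partner COX4I1 stood at 356 to 471 TPM. The files hold COX7B and ATP5F1E as 2 genes each, of which COX7B_1 (1 count in all 9 libraries) and ATP5F1E_2 (0 counts) were almost empty and COX7B_2 on chromosome X and ATP5F1E_1 on chromosome 13 held the reads. How reads shared between such copies were assigned is not stated, so the values of these 2 pairs are uncertain.

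The comparison of MAT with CYST asks what EGF and the UG-LIKE form changed. It gave lower estimates for most nuclear OXPHOS genes. The main edgeR test, which took no account of the replicate number, called none of them at an adjusted p under 0.05. Of the 86 nuclear genes tested, 79 had a Log2FC (log2 fold change) below 0, against 49.2% of all 12074 genes tested. Their median Log2FC was -0.28, against a median of 0.01 over all genes. In edgeR's quasi-likelihood test, 0 of the 86 had an adjusted p under 0.05 in either direction, where 0.845% of all genes were called higher and 0.944% lower, and 0 met the DEG criteria of an adjusted p under 0.05, an absolute Log2FC over 1 and a TPM above 1 in all 6 libraries (1.45% of all genes). At an unadjusted p under 0.05, 23 of them were lower and 0 higher, where 11.3% of all genes were lower and 9.35% higher. In TMM-normalised counts per library size (CPM), all 3 MAT libraries were below all 3 CYST libraries in 45 of them (15.0% of all genes) and above them in 0 (12.0% of all genes). In TPM they were below in 32 (11.8% of all genes). DESeq2 called 6 of the 86 lower (6.15% of the genes to which it gave an adjusted p), and limma on log2(TPM + 1) called 0. The share of all genes that limma called is not given here, so its 0 cannot be set against that share.

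With the replicate number as a block, 7 nuclear genes were called lower and 1 higher, where 5.67% and 4.90% of all genes were called. The share among the OXPHOS genes, 7 of 86, was thus near that of all genes. The 7 were NDUFA10, NDUFS8 and NDUFV1 of complex I, UQCRQ of complex III, COX5A of complex IV, and ATP5MC1 and ATP5F1E_1 of complex V, and the one called higher was NDUFA4L2, the only 1 of the 8 to meet the DEG criteria with the block (6.01% of all genes). All 8 calls depended on single libraries. With the block, leaving out 1 library also takes its same-numbered partner out of the comparison. Of the 86 genes, 0 were called in the blocked test without CYST or MAT replicate 1, where 64 and 114 of all genes were called. Without CYST or MAT replicate 2, 1 was called, where 397 and 687 of all genes were called. Without CYST or MAT replicate 3, 8 were called, where 1789 and 1754 of all genes were called. NDUFV1 was not among these 8. The direction did not depend on 1 library, and without any one of the 6 the unblocked median stayed between -0.30 and -0.27.

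**Figure D2:**
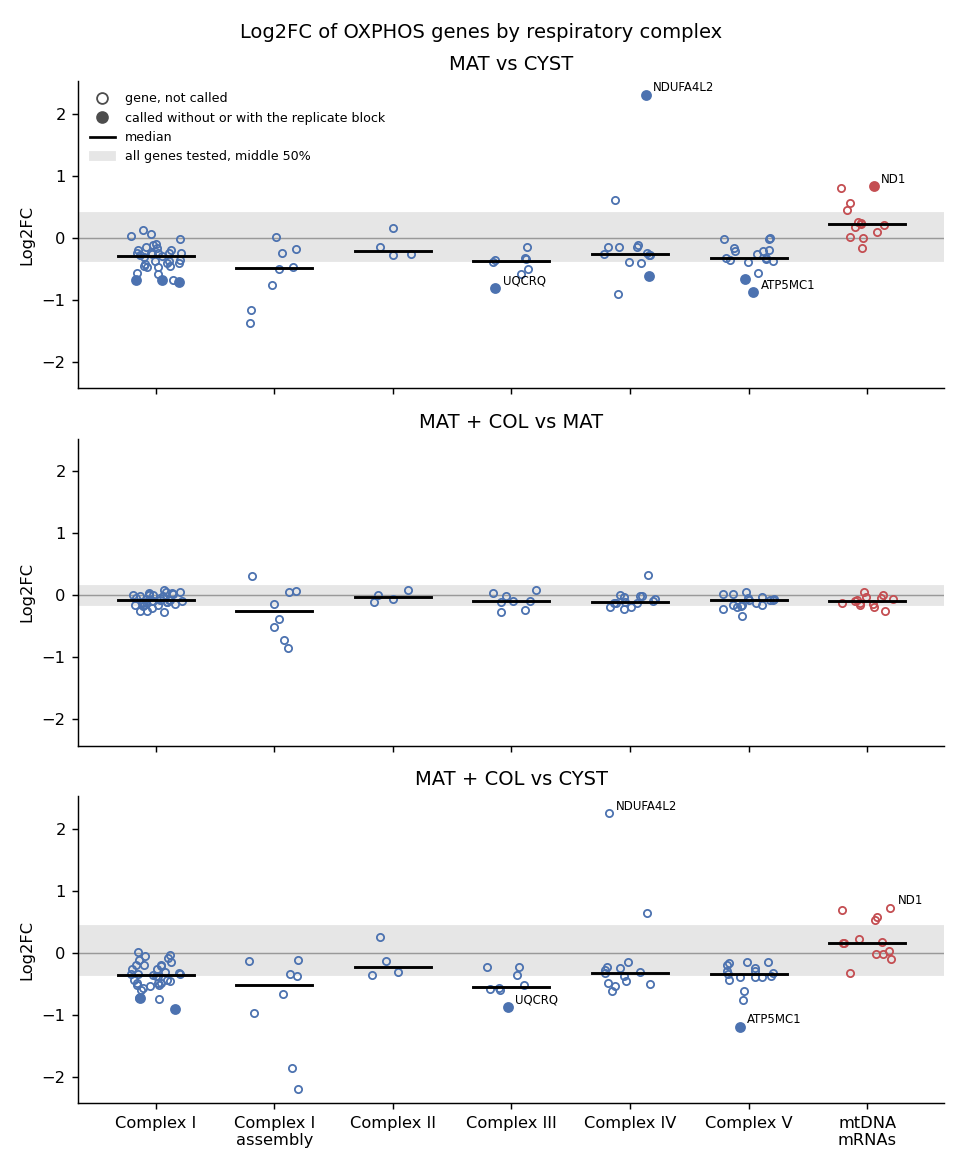
Log2FC of each tested OXPHOS gene by complex (blue, nuclear) and of the 13 mitochondrial mRNAs (red) in the 3 comparisons, with black bars at the medians, filled points for genes called without or with the replicate block, and a grey band for the middle 50% of all genes tested. In both comparisons with CYST the nuclear medians lay below 0 in every complex and that of the mitochondrial mRNAs above 0, and in MAT + COL against MAT all points but a few lay near 0.

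Complex I, the entry point for NADH, had 32 of its 35 nuclear subunits below 0 in MAT against CYST, with a median Log2FC of -0.29. NDUFV1, which carries the flavin that accepts electrons from NADH (chromosome 29, 45461955 to 45470058 on ARS-UCD2.0), stood at 107, 112 and 79.9 TPM in CYST, 76.7, 65.8 and 43.8 TPM in MAT, and 68.5, 62.2 and 57.7 TPM in MAT + COL. All libraries of both EGF groups were below the lowest CYST library. Its Log2FC in MAT was -0.69 ± 0.21 (SE; edgeR adjusted p = 0.124, and 0.0463 with the block). The blocked call was lost without any one of the 6 libraries (adjusted p of 0.0648 to 0.191). NDUFS8, an iron-sulphur subunit on the path to ubiquinone, stood at 123, 113 and 70.3 TPM in CYST and at 68.5, 68.8 and 53.6 TPM in MAT, and its blocked Log2FC was -0.66 ± 0.17 (adjusted p = 0.0449). CYST replicate 3 was the lowest of its group and only just above the highest MAT library. The MAT + COL libraries, at 73.0, 59.6 and 59.5 TPM, overlapped CYST in TPM but not in CPM. NDUFA10, an accessory subunit, stood at 126, 121 and 93.1 TPM in CYST and at 88.2, 66.8 and 54.2 TPM in MAT, with no overlap between these groups. Its MAT + COL libraries, at 103, 72.4 and 60.8 TPM, overlapped CYST in TPM but not in CPM. In MAT its blocked Log2FC was -0.73 ± 0.17 (adjusted p = 0.0376).

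Not all of complex I was lower. NDUFS1, the largest iron-sulphur subunit, had a Log2FC of -0.02 ± 0.18, and its 108, 129 and 77.9 TPM in CYST spanned its 102, 119 and 87.4 TPM in MAT. NDUFB7, with 0.13 ± 0.21, had the smallest p among the 3 subunits above 0. The 8 assembly factors, which help to build complex I and are not part of it, had a median of -0.48, with 7 below 0 and none called. NDUFAF5, which modifies NDUFS7 during assembly, stood at 18.5, 24.96 and 12.3 TPM in CYST, 6.41, 11.0 and 7.02 TPM in MAT, and 6.86, 3.44 and 5.48 TPM in MAT + COL. Both EGF groups lay below CYST without overlap, and its Log2FC of -1.16 ± 0.39 in MAT had an adjusted p of 0.142 (0.0747 with the block).

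Complex II, succinate dehydrogenase, showed the smallest shift of the nuclear groups. Its 4 subunits had a median Log2FC of -0.21, and none reached an unadjusted p under 0.05. SDHB, its iron-sulphur subunit, stood at 134, 132 and 125 TPM in CYST and at 118, 111 and 99.1 TPM in MAT, which did not overlap, with a Log2FC of -0.27 ± 0.16. SDHA, the flavoprotein, had -0.14 ± 0.19, and SDHD, a membrane anchor, 0.16 ± 0.20.

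All 8 nuclear genes of complex III were below 0, with a median of -0.37. UQCRQ, a small subunit of the complex (chromosome 7, 44447394 to 44448852), stood at 287, 265 and 201 TPM in CYST, 176, 147 and 110 TPM in MAT, and 161, 151 and 115 TPM in MAT + COL. The groups with EGF lay below CYST without overlap, at 0.572 times its level in MAT. Its Log2FC was -0.81 ± 0.21 (adjusted p = 0.0824, and 0.0308 with the block). The core subunit UQCRC1 had -0.58 ± 0.22 and the Rieske iron-sulphur protein UQCRFS1 -0.36 ± 0.18, with adjusted p of 0.185 and 0.298, and for both the MAT and CYST libraries overlapped in TPM but not in CPM.

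Of the 14 tested genes of complex IV, cytochrome c oxidase, 12 were below 0, with a median of -0.26. COX5A, a nuclear subunit on the matrix side, stood at 299, 264 and 215 TPM in CYST, 175, 176 and 156 TPM in MAT, and 183, 175 and 171 TPM in MAT + COL, with both EGF groups below CYST without overlap. Its Log2FC in MAT was -0.62 ± 0.16 (adjusted p = 0.0843, and 0.0468 with the block). COX4I1, a nuclear subunit that joins early in assembly, had a Log2FC of -0.14 ± 0.18 and overlapping groups. COX7A2L, which helps to hold complexes III and IV together, had -0.11 ± 0.19. The muscle-type isoforms were low: COX7A1 lay between 4.70 and 18.5 TPM and COX8B between 1.87 and 4.64 TPM over the 9 libraries, and their Log2FC of -0.91 ± 0.73 and 0.61 ± 0.56 did not pass the test.

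NDUFA4L2, a paralog of the complex IV subunit NDUFA4 and known as a gene induced by hypoxia, was the one nuclear gene called higher, and it varied most between replicates. It stood at 12.6, 4.78 and 236 TPM in CYST, 247, 365 and 810 TPM in MAT, and 97.9, 375 and 901 TPM in MAT + COL. In each replicate number both EGF libraries were above the CYST library, but CYST replicate 3 was close to MAT replicate 1 and above MAT + COL replicate 1. Without the block its Log2FC in MAT was 2.30 ± 1.30 (adjusted p = 0.365), and with the block 3.96 ± 0.83 (adjusted p = 0.0285). In unblocked tests that left out 1 library it was called only without CYST replicate 3, at 5.92 (adjusted p = 0.0214). The blocked call was kept in 4 of 6 such tests and lost without CYST or MAT replicate 1. NDUFA4 itself had mean levels of 723 ± 106 TPM (SD, n = 3) in CYST, 656 ± 74.0 in MAT and 644 ± 80.2 in MAT + COL, so that NDUFA4L2 ranged from 0.00594 to 1.57 times NDUFA4 between libraries. In MAT replicate 3 and MAT + COL replicate 3, NDUFA4L2 was above NDUFA4.

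All 17 tested nuclear genes of complex V were below 0, with a median of -0.33. ATP5MC1, 1 of 3 genes for the same subunit c of the rotor ring (chromosome 19, 37618778 to 37621710), had the smallest p of the nuclear genes. It stood at 149, 159 and 130 TPM in CYST, 90.3, 81.5 and 68.4 TPM in MAT, and 74.4, 60.5 and 66.1 TPM in MAT + COL. Both EGF groups lay below CYST without overlap, while MAT and MAT + COL overlapped in TPM though not in CPM. MAT was at 0.543 times the level of CYST, with a Log2FC of -0.88 ± 0.18 (adjusted p = 0.0534, and 0.0262 with the block).

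The 3 genes for subunit c did not move alike in their estimates. ATP5MC3 had a Log2FC of -0.57 ± 0.18 (adjusted p = 0.128) and ATP5MC2 -0.01 ± 0.17, with overlapping groups. Of the summed TPM of the 3 genes, ATP5MC1 made up 10.8%, 12.3% and 12.1% in CYST, 8.99%, 9.19% and 6.69% in MAT, and 7.83%, 7.16% and 6.55% in MAT + COL. ATP5MC2 made up 34.5% to 37.3% in CYST, 44.0% to 48.0% in MAT and 42.4% to 47.5% in MAT + COL, so that its share was higher in every EGF library than in any cyst library. These shares were computed after the Log2FC were known and carry no test. ATP5F1E_1, the epsilon subunit, stood at 75.8, 76.3 and 51.8 TPM in CYST and at 44.1, 46.0 and 38.8 TPM in MAT, with a Log2FC of -0.66 ± 0.16 (adjusted p = 0.0772, and 0.0423 with the block). The catalytic subunits ATP5F1A and ATP5F1B had -0.37 ± 0.16 and -0.35 ± 0.17 (adjusted p = 0.254 and 0.283).

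**Figure D3:**
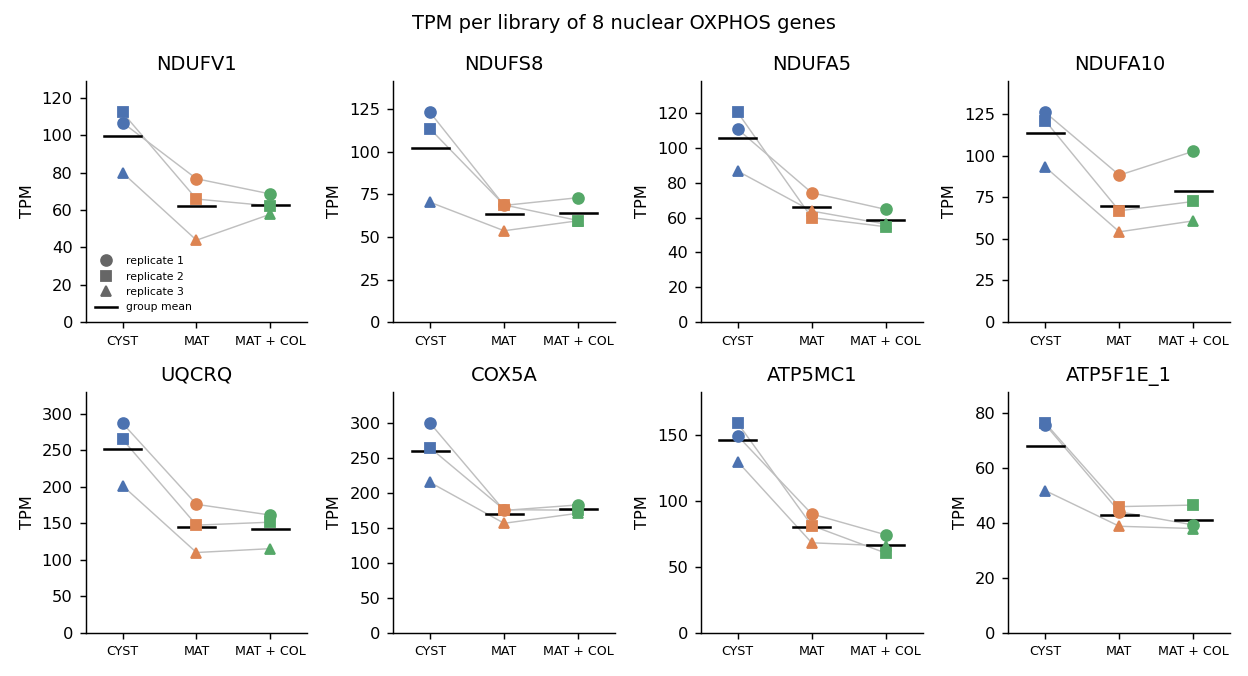
TPM per library of the 7 nuclear OXPHOS genes called lower in MAT against CYST with the replicate block and of NDUFA5, called in MAT + COL against CYST with the block, with grey lines joining equal replicate numbers and black bars at the group means. In each panel all 3 CYST libraries lie above all 3 MAT libraries, and CYST replicate 3 is the lowest of its group.

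The mitochondrial mRNAs ran the other way in their estimates, within wide spreads. In MAT against CYST, 11 of the 13 had a Log2FC above 0 (12 with the block, with DESeq2 and with TPM, since MT-ND4L at -0.01 crossed 0), against 50.8% of all genes. The median was 0.23, and it was 0.08 without CYST replicate 3 and 0.53 without CYST replicate 1. With the block and without replicate 3 of CYST or of MAT, 6 of the 13 were below 0 and the median was 0.01. In edgeR's test 0 were called and 2 had an unadjusted p under 0.05, ND1 and MT-CYB. DESeq2 and the blocked test each called ND1 alone, where 5.11% and 4.90% of all genes were called higher.

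ND1, a core subunit of complex I (MT, 3101 to 4056), stood at 1281, 834 and 530 TPM in CYST, 1593, 1560 and 1490 TPM in MAT, and 1773, 1637 and 1131 TPM in MAT + COL. MAT lay above CYST without overlap, and MAT + COL replicate 3 fell within the CYST range. Its Log2FC in MAT was 0.83 ± 0.26 (adjusted p = 0.131), and 0.89 ± 0.22 with the block (adjusted p = 0.0413), a call that was lost without any one of the 6 libraries (adjusted p of 0.0551 to 0.141). MT-CYB, the cytochrome b of complex III, stood at 1311, 848 and 1108 TPM in CYST and at 1588, 1588 and 1712 TPM in MAT. Its groups did not overlap, and its Log2FC was 0.56 ± 0.23 (adjusted p = 0.228). MT-ND3 also had groups without overlap, and a Log2FC of 0.81 ± 0.36 (adjusted p = 0.255).

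The other mitochondrial subunits of complex I were closer to 0, with a Log2FC of 0.45 ± 0.22 for MT-ND6, 0.23 ± 0.24 for ND5, 0.18 ± 0.24 for MT-ND4 and -0.16 ± 0.28 for MT-ND2. Those of complex IV were COX1 at 0.21 ± 0.25, MT-CO2 at 0.10 ± 0.28 and COX3 at 0.01 ± 0.26, and those of complex V MT-ATP8 at 0.25 ± 0.29 and MT-ATP6 at 0.24 ± 0.25. None of these 9, nor MT-ND4L, passed the test. The mRNAs of MT-ATP8 and MT-ATP6 share 40 bases and those of MT-ND4L and MT-ND4 share 7 on the same strand, and ND5 and MT-ND6 share 17 bases on opposite strands. The strand setting of the counting is not stated, so counts within these pairs cannot be fully told apart.

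The estimates thus differed among the mitochondrial mRNAs. ND1 and MT-ND2 lie next to each other as mRNA genes on the same chromosome, and the ratio of their TPM was 1.23, 0.764 and 1.03 in CYST, 2.66, 2.09 and 1.53 in MAT, and 2.58, 2.37 and 1.47 in MAT + COL. Every EGF library was above every CYST library. This pair was picked after its values were seen, and the ratio has no test.

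**Figure D4:**
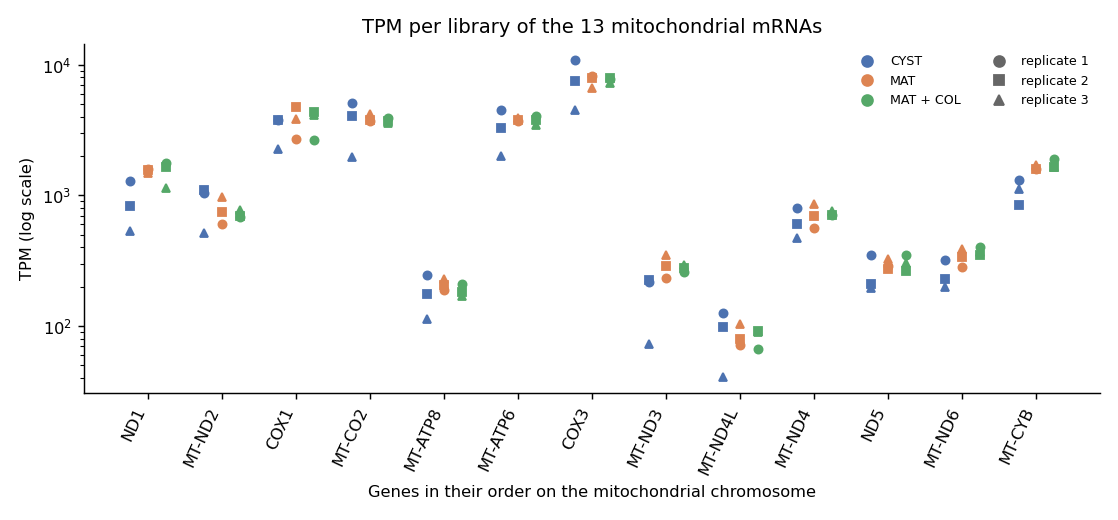
TPM (log scale) of the 13 mitochondrial mRNAs in the 9 libraries, in their order on the chromosome, with colours for groups and marker shapes for replicate numbers. CYST replicate 3 is the lowest library for 12 of the 13 genes, MT-CYB being the exception, and ND1, MT-ND3 and MT-CYB have all MAT libraries above all CYST libraries.

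**Figure D5:**
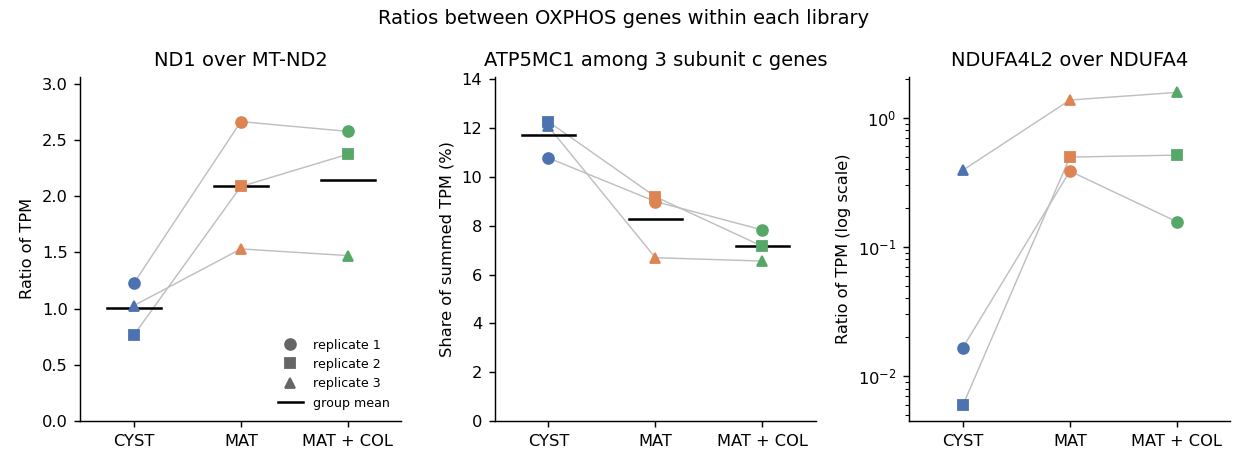
Ratio of ND1 to MT-ND2 (TPM), share of ATP5MC1 in the summed TPM of the 3 subunit c genes (%), and ratio of NDUFA4L2 to NDUFA4 (TPM, log scale) in each library, with black bars at group means in the first and second panels. The first 2 separate CYST from both EGF groups, and the last varies from 0.00594 to 0.392 within CYST.

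Collagen I made no detectable difference to the OXPHOS genes. In MAT + COL against MAT, edgeR called 0.0% of the 12470 genes tested, with or without the block, and 0.225% and 0.184% of all genes were higher and lower at an unadjusted p under 0.05. Of the 86 nuclear genes, 0 reached an unadjusted p under 0.05, and DESeq2 and limma called 0. Below 0 were 65 of them (50.1% of all genes), with a median of -0.09, but on the TPM scale 45 were below 0 and the median was -0.01, so this tilt depended on the scaling. Above 0 were 21 of them (49.9% of all genes). In CPM, all MAT + COL libraries were below all MAT libraries in 11 of the 86 (1.55% of all genes) and above them in 0 (1.71% of all genes), but in TPM they were below in 2 (0.818% of all genes), and UQCR10, a small subunit of complex III chosen after its values were seen, was the 1 gene in both counts. ATP5MC1 had the smallest p of the nuclear genes, with a Log2FC of -0.33 ± 0.17. The median SE of the 86 Log2FC was 0.16, so differences of that size could not be seen in 3 libraries against 3. The 13 mitochondrial mRNAs had a median of -0.09, with 11 below 0 (8 on the TPM scale), and the median was 0.04 without MAT replicate 3.

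MAT + COL was compared with CYST as well, a contrast in which EGF and collagen I change together and which uses the same CYST libraries as the first. Below 0 were 82 of the 86 nuclear genes (47.0% of the 12509 genes tested), with a median Log2FC of -0.35 against 0.04 over all genes, and 38 had an unadjusted p under 0.05 and were lower (11.3% of all genes), against 0 that were higher (10.4% of all genes). The MAT + COL libraries lay below all CYST libraries in 54 of them in CPM (14.4% of all genes) and in 32 in TPM (10.3% of all genes). One nuclear gene was called, ATP5MC1, with a Log2FC of -1.19 ± 0.16 and 0.439 times the level of CYST (adjusted p = 0.0298, and 0.0241 with the block), where 0.815% of all genes were called lower and 0.672% higher. It met the DEG criteria, as did 1.13% of all genes, and did so with the block too (3.46% of all genes). Its call was lost without any 1 of CYST replicates 1, 2 and 3 and MAT + COL replicates 1 and 2, with an adjusted p of up to 0.137.

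With the block, 4 nuclear genes were called lower, ATP5MC1, UQCRQ, NDUFV1 and NDUFA5 (2.58% of all genes), and 0 higher (2.68% of all genes). NDUFA5, an accessory subunit of complex I, stood at 111, 120 and 86.8 TPM in CYST, 74.3, 60.0 and 63.8 TPM in MAT, and 64.8, 54.8 and 56.3 TPM in MAT + COL, with a Log2FC of -0.91 ± 0.17 against CYST (adjusted p = 0.0544, and 0.0471 with the block). None of the 4 was called without CYST or MAT + COL replicate 1, and none without CYST or MAT + COL replicate 2. Without replicate 3 of either group 15 nuclear genes were called lower and 1 higher. Calls over all genes rose too, from 658 to 2399 without CYST replicate 3 and to 2489 without MAT + COL replicate 3. The rise was thus not particular to the OXPHOS genes. DESeq2 called 19 lower and 0 higher (7.13% and 5.58% of the genes to which it gave an adjusted p). Among the mitochondrial mRNAs, 9 of 13 were above 0 (12 on the TPM scale, and 53.0% of all genes), the median was 0.16 and 0 were called by edgeR or DESeq2, with 3 at an unadjusted p under 0.05. ND1 had 0.73 ± 0.28, MT-CYB 0.58 ± 0.22 and MT-ND6 0.53 ± 0.18 (adjusted p = 0.189, 0.184 and 0.155).

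The nuclear OXPHOS genes are short. The length implied by counts and TPM had a median of 1286 bases over the 86 tested nuclear genes and 3164 bases over all genes tested in MAT against CYST. Across all 12074 genes, length and Log2FC had a Spearman correlation of 0.109, a description over genes that are not independent. The part of length in the lower estimates was not tested.

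Other mitochondrial gene groups were read from 7 lists, chosen with earlier results of these data known. Beyond the respiratory chain itself, the ATP carrier SLC25A5 and the pyruvate carrier subunit MPC1 fell and the inner membrane carrier UCP2 rose in both EGF groups. SLC25A5, which exchanges ADP for ATP across the inner membrane, stood at 689, 583 and 414 TPM in CYST, 183, 215 and 166 TPM in MAT, and 197, 194 and 204 TPM in MAT + COL. Its Log2FC was -1.58 ± 0.20 in MAT (adjusted p = 0.0216) and -1.55 ± 0.18 in MAT + COL (adjusted p = 0.0259). UCP2, a carrier of the uncoupling protein family, stood at 135, 142 and 99.4 TPM in CYST, 259, 287 and 276 TPM in MAT, and 286, 299 and 277 TPM in MAT + COL, with a Log2FC of 1.13 ± 0.16 in MAT (adjusted p = 0.0269) and 1.14 ± 0.15 in MAT + COL (adjusted p = 0.0269). Neither gene overlapped between CYST and the EGF groups. Of the 10 tested genes of ATP and phosphate exchange, these were the 2 called without the block. Of all genes, 0.845% were called higher and 0.944% lower in MAT. With the block CKMT1A, a mitochondrial creatine kinase, was called higher in MAT too (1.24 ± 0.26, adjusted p = 0.0298), where 4.90% of all genes were called higher. That call was kept in 3 of 6 tests that left out 1 library.

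Of the 23 enzymes and carriers of pyruvate entry and the citric acid cycle, 20 were below 0 in MAT against CYST (49.2% of all genes), with a median of -0.32, and 2 were called, both lower (0.944% of all genes). MPC1, which with MPC2 imports pyruvate, stood at 188, 129 and 112 TPM in CYST, 44.6, 34.8 and 38.5 TPM in MAT, and 42.2, 38.5 and 42.0 TPM in MAT + COL. Its Log2FC was -1.87 ± 0.23 (adjusted p = 0.0216) and -1.86 ± 0.21 (adjusted p = 0.0259), and the ratio of MPC1 to MPC2 TPM was 1.66 to 2.49 in CYST, 0.565 to 0.774 in MAT and 0.624 to 0.946 in MAT + COL. MDH2, the malate dehydrogenase of the cycle, fell by 0.94 on the log2 scale in MAT (SE 0.17, adjusted p = 0.0448) and by 0.97 in MAT + COL (SE 0.17, adjusted p = 0.0416). With the block, 4 of the 23 were called lower in MAT (5.67% of all genes). IDH3A, a subunit of isocitrate dehydrogenase, was 1 of them (-0.73 ± 0.18, adjusted p = 0.0444), a call lost without any one of the 6 libraries (adjusted p of up to 0.182).

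The mitochondrial ribosome, which translates the 13 mitochondrial mRNAs, lay mostly below 0 as well. Of its 74 tested proteins, 66 were below 0 in MAT against CYST and 68 in MAT + COL against CYST (49.2% and 47.0% of all genes), with medians of -0.41 and -0.45, and in MAT + COL against MAT the median was -0.05. MRPL15 (-1.11 ± 0.21, adjusted p = 0.0462) was the 1 called in MAT and MRPL48 (-1.11 ± 0.19, adjusted p = 0.0439) the 1 called in MAT + COL. Of all genes, 0.944% and 0.815% were called lower in these comparisons. With the block, 7 were called lower in MAT (5.67% of all genes). Calls of these genes outside the respiratory chain were sensitive to single libraries: without the block, SLC25A5, UCP2 and MPC1 kept an adjusted p under 0.05 in MAT in 2 of 6 tests that each left out 1 library, those without replicate 3 of either group, and the highest adjusted p was 0.116. With the block, MPC1 kept it in 5 of 6 and SLC25A5 and UCP2 in 4 of 6. Without the block, MDH2 kept it in 0 of 6 and MRPL15 in 1 of 6, with adjusted p of up to 0.167 and 0.174. In MAT + COL against CYST the same unblocked tests kept SLC25A5, UCP2 and MPC1 in 2 of 6, MDH2 in 1 and MRPL48 in 0.

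Genes that act on mitochondrial DNA and RNA, and the regulators above them, showed smaller shifts. Of the 13 tested genes of mitochondrial DNA maintenance and transcription, 11 were below 0 in MAT (49.2% of all genes), with a median of -0.18. Without the block 0 were called, where 0.944% of all genes were called lower. With it 2 were called lower, where 5.67% of all genes were. These were TFB2M, a factor that opens the promoter for the mitochondrial polymerase (-0.77 ± 0.20, adjusted p = 0.0484), and MTERF3 (-0.81 ± 0.21, adjusted p = 0.0485). Both calls were lost without any one of the 6 libraries (adjusted p of up to 0.307 and 0.345), and in MAT + COL against CYST 0 genes of this list were called with the block. Of 17 genes of mitochondrial RNA processing and stability, 13 were below 0 in MAT (49.2% of all genes), with a median of -0.26. In MAT 0 were called without or with the block, where 0.944% and 5.67% of all genes were called lower. In MAT + COL against CYST, TBRG4, which acts on mitochondrial RNA stability, was the 1 called lower with the block (2.58% of all genes). It was not called without the block, and its blocked Log2FC was -0.83 ± 0.15 (adjusted p = 0.0378). The call was kept in 2 of 6 tests that left out 1 library. Of 10 regulators of mitochondrial biogenesis, 8 were below 0 in MAT (49.2% of all genes), with a median of -0.16. Again 0 were called without or with the block, where 0.944% and 5.67% of all genes were called lower. PPARGC1A, the coactivator best known for raising OXPHOS genes, was near the limit of detection. It stood at 0.638 to 1.93 TPM in CYST and at 0 to 0.807 TPM in MAT. Of 44 other assembly factors and electron carriers, 31 were below 0 in MAT (49.2% of all genes), with a median of -0.19. Without the block 0 of the 44 were called, where 0.944% of all genes were called lower. With the block 3 were called lower, where 5.67% of all genes were. These were BCS1L, ACAD9 and TMEM126A, at -1.08 ± 0.20, -1.07 ± 0.24 and -1.12 ± 0.24 (adjusted p = 0.0194, 0.0328 and 0.0301), kept in 2, 2 and 3 of 6 tests that left out 1 library. BCS1L inserts the Rieske protein into complex III, and ACAD9 and TMEM126A act in the assembly of complex I.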

How the data were processed

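RNA-seq was performed on 9 libraries of cultured bovine uterine gland fragments, 3 each of CYST, MAT and MAT + COL, grouped and numbered by their titles. The names given in the sample descriptions carry other numbers for most libraries. Replicate numbers were therefore matched across groups by the titles alone. The labels do not give the animal behind a library. The study's text reports that the MAT and MAT + COL samples clustered mainly by individual, without tying animals to libraries. It makes no such statement for CYST. The p-values measure the spread between these libraries, and the part of it that lies between animals is not known. The authors prepared libraries with SMART-Seq HT PLUS, trimmed the reads, aligned them to ARS-UCD2.0 in CLC Genomics Workbench and deposited raw counts per gene and TPM. The annotation release and strand setting are not given in the sources used here. Mitochondrial rRNAs and tRNAs were not analysed here.

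Counts were analysed with edgeR 4.0.16 in R 4.3.3: filterByExpr (minimum count 10), TMM normalization and the quasi-likelihood F test, fitted to the 6 libraries being compared, and p-values were adjusted by Benjamini-Hochberg across every gene tested. A gene was called at an adjusted p under 0.05, and SE is the absolute Log2FC divided by the square root of F. Same-numbered libraries deviated together from their group means (correlations of 0.329, 0.437 and 0.396 in MAT and CYST, 0.471, 0.613 and 0.687 in MAT + COL and MAT, and 0.278, 0.350 and 0.347 in MAT + COL and CYST). The main test took no account of this pairing, and edgeR values are from it unless the block is named. Results with the replicate number as a block are given where they change a call. Alternatives were DESeq2 1.42.0, RLE size factors, mitochondrial genes left out of totals, no filter on low counts and all 9 libraries in the fit. Others were limma 3.58.1 on log2(TPM + 1) or log2(TPM + 0.1), and leaving out each library. This last was also combined with the block, a choice made after seeing the data. With the block, a library whose same-numbered partner is left out adds nothing to the Log2FC. The 6 such tests are therefore not 6 separate checks. DESeq2 and the edgeR test, without and with the block and with RLE size factors, were first run on simulated counts with known changes. These counts held no replicate effect, and the other alternatives were not simulated.

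Members and lists were chosen with earlier results of these data known. Genes named one by one were the mitochondrial mRNAs, core subunits and isoforms, genes called in any comparison without or with the block, the smallest p of each complex in each direction, and the called genes or smallest p of each other list, and 2 genes that this rule names are not reported here. Since PCR duplicates cannot be told from separate molecules, the limit that a count of 0 allows covers counting error only. Totals of 6568968 to 17948600 counts per library set the precision.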

Additional observations from a re-analysis of the deposited data

How the results depend on the processing

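With 3 libraries per group, the number of calls depended on the method and on single libraries, while the median of the nuclear genes stayed below 0 under every alternative run. Over all genes, DESeq2 called 1278 in MAT against CYST and 1524 in MAT + COL against CYST, and the fit to all 9 libraries called 580 and 601. Of the nuclear OXPHOS genes, DESeq2 called 6 and 19 and the fit to all 9 libraries 3 and 8, and DESeq2 called 1 mitochondrial mRNA in MAT. With the replicate block, 1277 and 658 genes were called, of which 8 and 4 were nuclear OXPHOS genes, and 1 mitochondrial mRNA in MAT. The block changed no other call of an OXPHOS gene. The cause of these differences was not tested.

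Leaving out 1 library at a time, without or with the block (the latter chosen after seeing the data), gave 5 to 1789 genes in MAT against CYST, 3 to 2489 in MAT + COL against CYST and 0 to 113 in MAT + COL against MAT. Nuclear OXPHOS calls ranged from 0 to 8, 0 to 16 and 0 to 1, and mitochondrial calls from 0 to 1, 0 to 3 and 0 to 0. The mitochondrial calls came from blocked tests without replicate 3, with 1 lower in MAT, and 2 higher and 1 lower in MAT + COL, against CYST. The unblocked median Log2FC of the nuclear genes ranged from -0.30 to -0.27, from -0.38 to -0.33 and from -0.12 to -0.064, and that of the mitochondrial mRNAs from 0.08 to 0.53, from 0.03 to 0.34 and from -0.20 to 0.04. The difference in mitochondrial share of counts ranged from -0.0361 to 0.246, from -0.0643 to 0.218 and from -0.0696 to -0.00077 percentage points. That in nuclear share ranged from -0.289 to -0.215, from -0.298 to -0.225 and from -0.0322 to 0.0146.

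On the TPM scale, with 1 or 0.1 added, the nuclear median was -0.0056 and -0.0063 in MAT + COL against MAT, and -0.2811 and -0.2838 in MAT + COL against CYST. As a share of summed TPM, the nuclear genes were -0.344 (MAT) and -0.346 (MAT + COL) percentage points from CYST. Estimates near 0 in MAT against CYST changed sign. MT-ND4L was at 0.0128 in DESeq2, 0.0121 with RLE size factors, 0.0395 with mitochondrial genes left out of the totals, 0.0529 with the block, 0.0387 with all 9 libraries, and 0.0732 and 0.0759 on the TPM scale. In the same order as far as they apply, ATP5MC2 was at 0.00212, 0.00216, 0.0261 and, with all 9 libraries, 0.0266. NDUFS1 was at 0.0159 without mitochondrial totals and 0.0165 with all 9 libraries, and NDUFAF3 at -3.96e-05 with the block. Without 1 library, MT-ND4L ranged from -0.30 to 0.34, COX3 from -0.19 to 0.35, NDUFS1 from -0.13 to 0.12, MT-ND2 from -0.39 to 0.065, ATP5MC2 from -0.044 to 0.088, NDUFAF3 from -0.10 to 0.12, COX7A2L from -0.20 to 0.028, MT-CO2 from -0.15 to 0.40 and MT-ND4 from -0.017 to 0.39. The planned restriction to mitochondrial protein-coding genes gave no separate values, since all 13 genes are mRNAs. COX4I2, COX6A2, COX6B2, COX7B2, COX7B_1 and ATP5F1E_2 had too few reads for a test.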
